A study of Homo sapiens with 4 samples.

Results

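The genes described here are 10 translation elongation and termination factors of human cells, taken by name from a fixed list: EEF1A1, EEF1A2, EEF1B2, EEF1D, EEF1G, EEF2, EEF2K, ETF1, GSPT1 and ABCE1. All 10 were found among the 20307 genes of the deposited table, which holds ribosome footprint levels of PANC-1, an established line of human pancreatic ductal adenocarcinoma. There were 4 libraries, 2 from cells depleted of FBXO32 and 2 from negative control cells, all from cells treated with cycloheximide to hold ribosomes on their mRNAs before lysis. FBXO32, also called atrogin-1, is the substrate-binding part of a ubiquitin ligase, and EEF1A1 is its substrate in the published study. The question is which genes differ in footprint level once FBXO32 is depleted. The labels give neither the means of depletion nor whether the cells are a clone, and the cells of both groups are otherwise described alike.

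Elongation adds amino acids to the growing chain in a cycle. The GTPase eEF1A, made from EEF1A1 or its paralog EEF1A2, brings aminoacyl-tRNA to the ribosome, and the eEF1B complex of EEF1B2, EEF1D and EEF1G exchanges its spent GDP for GTP. The GTPase eEF2 then moves the ribosome by a codon, and the kinase eEF2K, which depends on calcium and calmodulin, phosphorylates and inhibits eEF2. At a stop codon eRF1 (ETF1) and the GTPase eRF3a (GSPT1) release the finished protein, and ABCE1 splits the ribosome into its subunits. Many mRNAs of elongation factors begin with a run of pyrimidines, the 5′ terminal oligopyrimidine or TOP element, through which mTOR signalling controls their translation.

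Transcription starts of the members are shown because the TOP element is defined at the first base of the mRNA. Each sequence runs 5′ to 3′ on the gene's strand, from 40 bases before the RefSeq transcript start to base 15 of the transcript. The capitals mark a TATA-like match before the start and the pyrimidine run from the start on.
EEF1A1, chr6:73521018-73521072, minus strand: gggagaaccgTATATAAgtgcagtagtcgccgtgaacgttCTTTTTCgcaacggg
EEF1B2, chr2:206159855-206159909, plus strand: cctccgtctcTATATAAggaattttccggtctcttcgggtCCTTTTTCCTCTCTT
EEF2, chr19:3985449-3985503, minus strand: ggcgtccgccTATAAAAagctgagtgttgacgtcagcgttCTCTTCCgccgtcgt
EEF1G, chr11:62573877-62573931, minus strand: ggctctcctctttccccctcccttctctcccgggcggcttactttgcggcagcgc
ETF1, chr5:138543222-138543276, minus strand: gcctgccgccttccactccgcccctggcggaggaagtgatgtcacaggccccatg
The sequences are RefSeq's on GRCh38.p14, and the results given are those of 11 entries from 8 of the 10 members. A pyrimidine start, searched on the gene's strand as C at the first transcribed base followed by 4 bases that are each C or T, was found in EEF1A1, EEF1B2 and EEF2, against 4.07% of all 35116 promoters. The letters TATANAA, searched on both strands in the 40 to 21 bases before the start, were found in the same 3 entries and in 1.76% of all promoters. Both motifs together were present in 18 promoters, or 0.0513%, and the searched windows do not overlap. EEF1B2 has a second entry without either motif. The listed starts of EEF1G and ETF1 do not begin with C followed by 4 pyrimidines, and ETF1, GSPT1, ABCE1 and EEF2K had neither motif in any entry. Only the listed start bases were searched, and whether PANC-1 cells use them was not tested.

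Levels are given in TPM, a length-scaled share of a library, and each library sums to the same total. Because TPM keeps no read depth, counting error cannot be computed. Only footprints were used here, so more or less mRNA and more or less translation of it give the same reading, and fewer cells of a kind cannot be told apart from less RNA per cell. Nothing in the labels says that the 2 bioreplicates of a group were separate cultures, so p-values may measure technical spread only. Between 13307 and 13805 genes were above 0 in a library. FBXO32 itself had 14.3 and 12.9 TPM in the depleted libraries, against 18.1 and 21.6 TPM in the controls, and did not pass the test (log2 fold change -0.51 ± 0.45 (SE), limma adjusted p = 0.429). Which columns hold depleted cells rests on the column names. The PANC-1 markers KRT18 (362 to 1251 TPM), VIM (477 to 1837 TPM) and KRT8 (120 to 506 TPM) were present in every library, while KRT7, EPCAM and MUC1 stayed between 0.885 and 7.68 TPM. The 8 PANC-1 markers summed to 4142 and 2241 TPM in the depleted libraries, against 6492 and 5660 TPM in the controls. Of the 8, 4 fell, namely KRT8 (log2 fold change -1.27), VIM (-1.14), CD44 (-0.98) and KRT18 (-0.93), 0 rose and 4 did not pass. Over all tested genes 19.5% were called lower. Of the markers that did not pass, MUC1 (1.15), EPCAM (1.104) and KRT7 (0.87) lay above 0 without overlap of the groups, and KRT19 (-0.19) below. Both depleted values were above both control values in 26.8% of all tested genes. Under median-ratio scaling EPCAM (limma adjusted p = 0.0297) and MUC1 (0.0255) were called higher and KRT8 (0.0388) lower. VIM (limma adjusted p = 0.0727), CD44 (0.148) and KRT18 (0.175) did not pass under that scaling. Of 12 markers of other cell types, 5 were listed at 0 throughout, and the collagen gene COL1A1, which ranged from 35.3 to 110.6 TPM, made up nearly all of their summed 35.7 and 39.0 TPM in the depleted libraries and 111 and 88.0 TPM in the controls. COL1A1, the only marker of another cell type that was tested, was called lower (log2 fold change -1.37, limma adjusted p = 0.00578). The part of either marker list in the results below was not tested.

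EEF2 and EEF1A2 were lower in the depleted libraries, and the other 8 factors did not pass the test. EEF2 footprints were at 0.259 of the control level, EEF1A2 at 0.504 by a call that several settings ended, and EEF1A1 had no difference beyond the spread of its replicates. All 10 members were among the 11623 genes tested, which had at least 1 TPM in at least 2 libraries. Of the members, 0 rose, 2 fell and 8 did not pass (limma on log2(TPM + 1), Benjamini-Hochberg adjusted p under 0.05), and 3 had an unadjusted p under 0.05, as did 37.3% of all tested genes. The background is 25.7% of all tested genes called in either direction, 19.5% lower and 6.21% higher, so 2 of 10 lower is near the background. Relative to the controls, 8 of the 10 members lay below 0 on the log2 scale, with a median of -0.66, against 56.3% of all tested genes and a median of -0.16. Over all genes 722 were called higher and 2268 lower. Scaling the libraries by median ratios gave 1251 higher and 1907 lower and moved the median of all genes to 0.02, while 8 of the members still lay below 0. Without depleted replicate 2, however, 4 members lay below 0 and the median of the members was 0.17. Over all tested genes 50% then lay below 0, with a median of -0.0014.

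**Figure D1:**
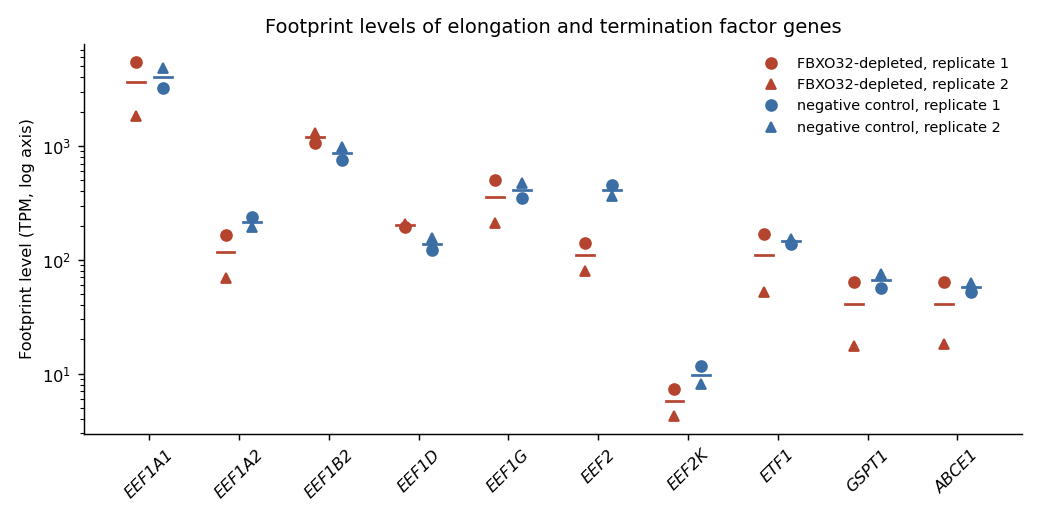
Footprint level of each factor gene in TPM on a log axis, with FBXO32-depleted libraries in red to the left of negative controls in blue, circles for replicate 1, triangles for replicate 2 and a line at each group mean (n = 2). Both depleted values of EEF2, 139 and 79.3 TPM, lie below its control values, while those of EEF1A1, 5495 and 1829 TPM, lie on either side of its controls.

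EEF1A1, which delivers aminoacyl-tRNA, was the most abundant of the factors in every library. EEF1A1 (ENSG00000156508) lies on the minus strand of GRCh38 chromosome 6, 73515750 to 73523797. It had 5495 and 1829 TPM in the depleted libraries, against 3261 and 4874 TPM in the controls. The depleted libraries held both the highest and the lowest value, 3.004 times apart, and the groups overlapped. Their means were 3662 ± 2592 TPM in depleted cells and 4068 ± 1141 TPM in control cells (SD, n = 2 each). As for most genes, the test took its spread from the trend over all genes and not from these replicates. The log2 fold change was -0.33 ± 0.34 (SE), with a 95% confidence interval from -0.996 to 0.34 (limma adjusted p = 0.504). It was 0.46 without depleted replicate 2, and -1.12 without depleted replicate 1, where it passed (limma adjusted p = 0.0401). By TPM it was gene 14 and gene 85 of its library in the depleted cells, and gene 33 and gene 13 in the controls. EEF1A1 alone made up 69.9% and 48.1% of the summed TPM of the 10 factors in the depleted libraries, and 59.9% and 66.3% in the controls. Together the 10 took 0.786% and 0.380% of all TPM in the depleted libraries and 0.544% and 0.735% in the controls.

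EEF1A2 (ENSG00000101210, chromosome 20, 63488012 to 63499322, minus strand) encodes the other eEF1A protein, known for its high level in muscle and neurons and in some tumours. It had 166 and 69.9 TPM in the depleted libraries, against 237 and 194 TPM in the controls, and the groups did not overlap. Depleted replicate 2 was the lowest of the 4. EEF1A2 fell by 0.99 on the log2 scale (SE 0.39, limma adjusted p = 0.0446), but did not pass with the replicate number as a block (limma adjusted p = 0.0718). The call ended under median-ratio scaling (limma adjusted p = 0.14), with all genes kept whatever their level (0.181), with a variance that ignores level (0.0822) and with the coding-length trend removed (0.111), and also without depleted replicate 2 (0.651), control replicate 1 (0.439) or control replicate 2 (0.173). The ratio of EEF1A2 to EEF1A1 within a library was 0.0301 and 0.0382 in depleted cells, against 0.0727 and 0.0398 in controls. These do not overlap, but control replicate 2 and depleted replicate 2 nearly coincide (exact two-sided permutation p = 0.333, the smallest that 2 against 2 libraries allow).

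The paralogs share little sequence of footprint length. No window of 28 bases, close to the length of a footprint, in the 1389 coding bases of EEF1A2 was found in a transcript of any other gene in GENCODE 29. The longest stretch that the EEF1A1 and EEF1A2 coding sequences share is 20 bases long, from coding base 157 to 176 in both (chr6:73519485-73519504 and chr20:63496004-63496023, minus strands), and is printed to show how short it is: tccttcaagtatgcctgggt. EEF1A1, by contrast, had 1345 of its 1359 windows, or 99.0%, in transcripts of 44 other genes, of which 43 are annotated pseudogenes and none is a row of the deposited table. Its value is therefore uncertain in so far as the counting, which no source used here describes, dropped or split reads that fit several places.

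None of the eEF1B subunit genes passed the test. EEF1B2 (ENSG00000114942, chromosome 2, 206159585 to 206162928, plus strand), a nucleotide exchange subunit, had 1069 and 1313 TPM in the depleted libraries, against 758 and 987 TPM in the controls. EEF1D (ENSG00000104529, chromosome 8, 143579697 to 143599541, minus strand), the other exchange subunit, had 194 and 206 TPM in the depleted libraries, against 121 and 156 TPM in the controls. In both genes each depleted value lay above each control value, yet neither passed. The log2 fold change was 0.45 for EEF1B2 (SE 0.36, limma adjusted p = 0.365, 95% confidence interval -0.25 to 1.15). For EEF1D it was 0.54 (SE 0.39, limma adjusted p = 0.312, interval -0.22 to 1.30). With the coding-length trend removed EEF1D passed as higher (log2 fold change 1.05, limma adjusted p = 0.0148). That call used its principal coding length of 1941 nt, and it ended at 0.38 (limma adjusted p = 0.393) with the shortest annotated coding length of 771 nt.

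EEF1G (ENSG00000254772, chromosome 11, 62559601 to 62574086, minus strand), the structural subunit that holds the exchange complex together, had 499 and 210.0 TPM in the depleted libraries, against 351 and 473 TPM in the controls. Like EEF1A1 it was highest in depleted replicate 1 and lowest in depleted replicate 2, and the groups overlapped. Its log2 fold change was -0.33 (SE 0.37, limma adjusted p = 0.549), and it was 0.29 without depleted replicate 2.

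Within a library the ratio of EEF1B2 to EEF1D stayed close to constant. It was 5.50 and 6.36 in depleted cells, against 6.27 and 6.31 in controls (exact two-sided permutation p = 1). The ratio of EEF1B2 to EEF1G was 2.14 and 6.25 in depleted cells, against 2.16 and 2.09 in controls (exact permutation p = 0.667). Only depleted replicate 2 departs from the other 3 libraries there. EEF1D to EEF1G gave 0.390 and 0.983 in depleted cells, against 0.345 and 0.330 in controls, so its groups did not overlap (exact permutation p = 0.333). Every coding window of EEF1G is also present in other genes, 99.2% of them in AP002990.1, an overlapping gene that the table lists at 0 in all 4 libraries. CHCHD3 holds 6.46% of them, and had 74.4 and 64.2 TPM in the depleted libraries, against 96.3 and 90.7 TPM in the controls. In EEF1B2 87.7% of the windows recur, all in pseudogenes, and in EEF1D 22.6%, so reads of these genes could be split or dropped too.

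**Figure D2:**
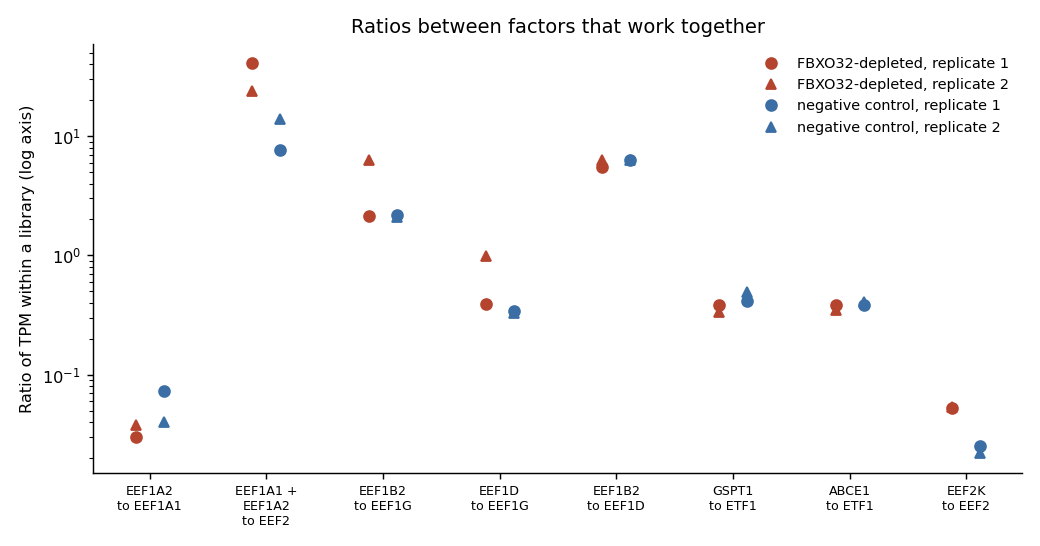
Ratios of TPM between factors that work together, within each library and on a log axis, with depleted libraries in red to the left of controls in blue. EEF1B2 to EEF1D lies between 5.50 and 6.36 in all 4 libraries, and EEF2K to EEF2 lies higher in the depleted libraries, at 0.0525 and 0.0532, than in the controls, at 0.0253 and 0.0220.

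EEF2, the translocation GTPase, showed the largest difference of the 10. Its gene (ENSG00000167658) lies on the minus strand of chromosome 19, 3976056 to 3985469. EEF2 had 139 and 79.3 TPM in the depleted libraries, against 457 and 365 TPM in the controls. The lowest control value was well above the highest depleted value. Means were 109 ± 42.6 TPM in depleted cells and 411 ± 64.6 TPM in control cells (SD, n = 2 each). EEF2 fell by 1.95 on the log2 scale (SE 0.38, 95% confidence interval -2.70 to -1.20, limma adjusted p = 8.44e-06), to 0.259 of the control level. It was gene 1188 and gene 1719 by TPM in the depleted libraries, and gene 383 and gene 495 in the controls. Leaving out control replicate 1 ended the call (limma adjusted p = 0.0646, log2 fold change -1.79). EEF2 passed in every other setting run, with log2 fold changes from -2.35 to -1.24. None of the 2547 coding windows of EEF2 was found in another gene.

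EEF2K (ENSG00000103319, chromosome 16, 22206282 to 22288732, plus strand), the kinase that inhibits eEF2, was the least abundant of the factors. Its level was 7.32 and 4.22 TPM in the depleted libraries, against 11.6 and 8.04 TPM in the controls. Each depleted value was below each control value. EEF2K did not pass, with a log2 fold change of -0.69 (SE 0.47, limma adjusted p = 0.281, 95% confidence interval -1.62 to 0.23). Relative to EEF2 footprints those of EEF2K stood higher, as EEF2 lay further below its controls (log2 fold change -1.95) than EEF2K did. EEF2K to EEF2 was 0.0525 and 0.0532 in depleted cells, against 0.0253 and 0.0220 in controls, 2.24 times as high by geometric means (exact permutation p = 0.333). EEF1A1 and EEF1A2 summed were 40.6 and 24.0 times EEF2 in depleted cells, against 7.66 and 13.9 times in controls, 3.02 times as high by geometric means (exact permutation p = 0.333). Neither ratio overlapped between the groups, and with 2 libraries a group no smaller p can be had. Both ratios are divided by EEF2 and so repeat its fall, and they are ratios of footprints, not of proteins.

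No result is given for the starts of EEF1A2 and EEF1D. Of the members found with a pyrimidine start, EEF2 fell, while EEF1A1 (log2 fold change -0.33) and EEF1B2 (0.45) did not pass. Differences between these genes were not tested.

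The release and recycling factors ETF1, GSPT1 and ABCE1 did not pass the test, and in all of them depleted replicate 2 stood apart below the other 3 libraries. ETF1 (ENSG00000120705, chromosome 5, 138506095 to 138543300, minus strand), the stop codon reader, had 167 and 52.4 TPM in the depleted libraries, against 137 and 154 TPM in the controls. GSPT1 (ENSG00000103342, chromosome 16, 11868128 to 11916082, minus strand), the release GTPase, had 63.5 and 17.7 TPM in the depleted libraries, against 56.8 and 75.7 TPM in the controls. ABCE1 (ENSG00000164163, chromosome 4, 145097932 to 145129179, plus strand), the recycling ATPase, had 63.5 and 18.2 TPM in the depleted libraries, against 52.6 and 62.6 TPM in the controls. Depleted replicate 1 was as high as the controls in each, so the groups overlapped.

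Their log2 fold changes were -0.63 for ETF1 (SE 0.39, limma adjusted p = 0.239), -0.94 for GSPT1 (SE 0.42, limma adjusted p = 0.0798) and -0.73 for ABCE1 (SE 0.42, limma adjusted p = 0.19). Without depleted replicate 2 they were 0.20, -0.05 and 0.14. Without depleted replicate 1 they were -1.45, -1.84 and -1.61, and all passed (limma adjusted p = 0.0106, 0.00131 and 0.00586). Relative to one another these genes varied less. GSPT1 to ETF1 was 0.381 and 0.337 in depleted cells, against 0.414 and 0.493 in controls, and ABCE1 to ETF1 was 0.380 and 0.346 in depleted cells, against 0.383 and 0.407 in controls (exact permutation p = 0.333 for each). ABCE1 had 51.0% and ETF1 38.8% of its coding windows in other genes, none of them a row of the table.

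GSPT2, a paralog of GSPT1 on the X chromosome, was at 2.79 and 0.874 TPM in the depleted libraries, against 4.01 and 3.35 TPM in the controls. Of the coding windows of GSPT1, 5.71% are also present in GSPT2, and the longest shared stretch of 49 bases, at chr16:11887595-11887643 on the minus strand, is printed as the longest place where footprints of the paralogs cannot be told apart: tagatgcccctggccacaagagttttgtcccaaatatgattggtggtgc.

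**Figure D3:**
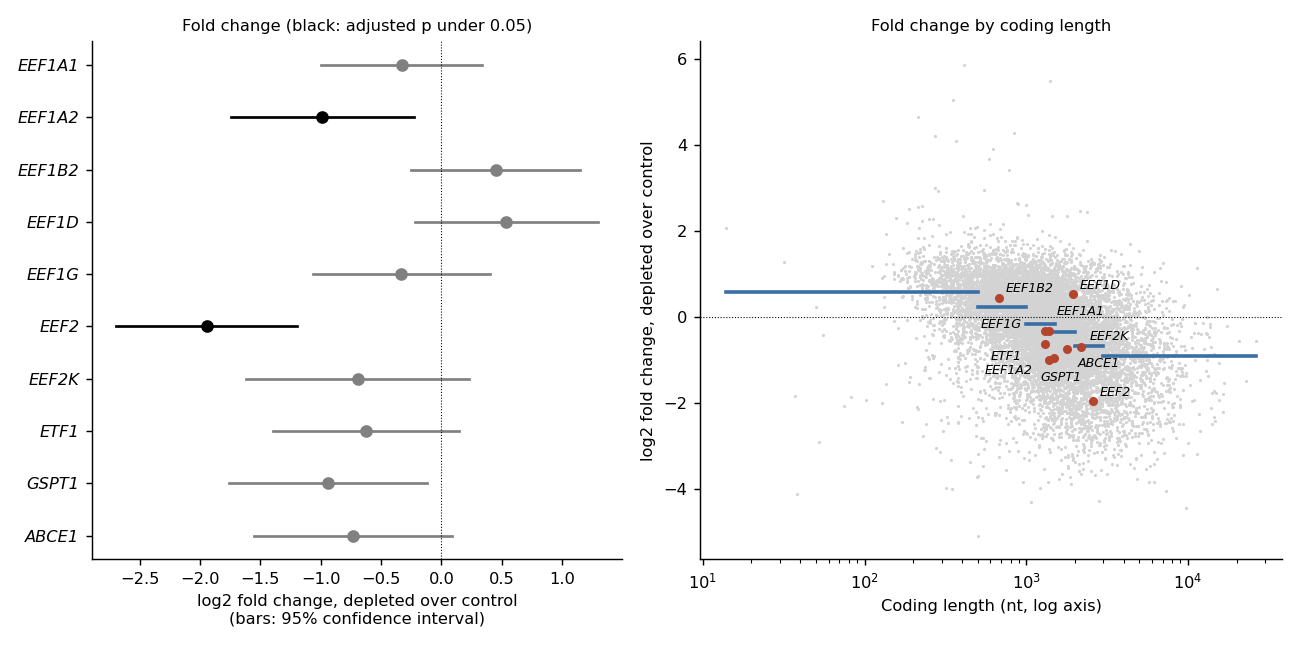
Left, log2 fold change of each factor, depleted over control, with its 95% confidence interval and in black where the adjusted p was under 0.05. Right, the same values in red against coding length on a log axis, over all tested genes in grey with the median of each length class as a blue line: EEF2 at -1.95 lies below the median of -0.66 for genes of over 2000 and up to 3000 nt.

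The spread within the depleted group set much of the picture. Depleted replicate 2 was below depleted replicate 1 in 8 of the 10 members, against 61.1% of all tested genes, and was the lowest of the 4 libraries in the same number. Over the whole table its median-ratio size factor was also the lowest, at 0.830. It was 1.05 in depleted replicate 1, and 1.07 and 1.08 in the controls. The part of this library-wide offset in the member pattern was not tested. In 6 members, EEF1A1, EEF1A2, EEF1G, ETF1, GSPT1 and ABCE1, depleted replicate 1 was at least 2 times depleted replicate 2, as in 16.7% of all tested genes. In the other 4 the depleted replicates were 1.76 times (EEF2), 1.73 times (EEF2K), 1.23 times (EEF1B2) and 1.06 times (EEF1D) apart, and in EEF1B2 and EEF1D replicate 2 was the higher. Among the controls, replicate 1 was below replicate 2 in 7 members, against 49.2% of all tested genes. Groups did not overlap in 5 members, with 3 below the controls and 2 above, where 37.6% and 26.8% of all tested genes lay wholly below and above. Without depleted replicate 1, 6 members were called lower, against 20.6% of all tested genes. Without depleted replicate 2 it was 1 member, against 11.4%. Without control replicate 1 it was 0 members, against 2.99%, and without control replicate 2 it was 1 member, against 13%.

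Coding length moved with the fold changes of all genes. The median log2 fold change was 0.58 for genes with coding sequences of up to 500 nt, -0.16 for those of over 1000 and up to 1500 nt and -0.91 for those of over 3000 nt. EEF1B2, with 675 coding bases, is the shortest of the members, and EEF2, with 2574, the longest. With a smooth trend on coding length removed, EEF2 was still lower (log2 fold change -1.24, limma adjusted p = 0.00294), EEF1A1 was at -0.06 and EEF2K at -0.09. The median of the 10 members was then -0.19. The part of coding length in these differences was not tested further.

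**Figure D4:**
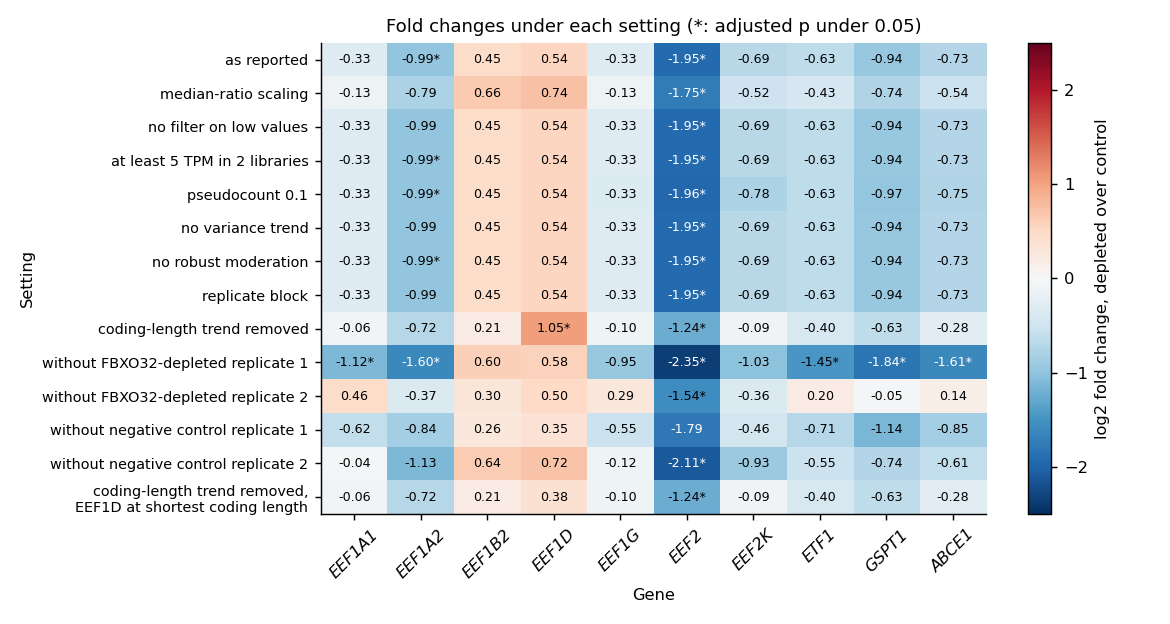
Log2 fold change, depleted over control, of each factor under each setting of the fit, in red above 0 and in blue below, with a star where the adjusted p was under 0.05. EEF2 lacks a star only without negative control replicate 1, at -1.79, and EEF1A1 changes sign without depleted replicate 2, to 0.46.

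The levels of the 10 fell into tiers. In the depleted cells the order by mean was EEF1A1, EEF1B2 (1191 TPM), EEF1G (354 TPM), EEF1D (200.4 TPM), EEF1A2 (118 TPM), ETF1 (110 TPM), EEF2 (109 TPM), ABCE1 (40.8 TPM), GSPT1 (40.6 TPM) and EEF2K (5.77 TPM). In the controls it was EEF1A1, EEF1B2 (873 TPM), EEF1G (412 TPM), EEF2 (411 TPM), EEF1A2 (216 TPM), ETF1 (145 TPM), EEF1D (139 TPM), GSPT1 (66.3 TPM), ABCE1 (57.6 TPM) and EEF2K (9.80 TPM). EEF1G and EEF2 did not differ beyond their spread in the controls, nor did ETF1 and EEF1D, or GSPT1 and ABCE1. In the depleted cells the values of EEF1A2, ETF1 and EEF2 overlapped.

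Among 1583 tested genes with a mean of at least 100 TPM, those nearest to EEF1A1 in pattern over the 4 libraries were LDHB, a lactate dehydrogenase subunit (distance 0.115), TRIM28, a transcriptional corepressor (0.123), and ENO1, the glycolytic enolase (0.141). The distance is Euclidean between log2(TPM + 1) values, each gene centred on its own mean. LDHB had 466 and 149 TPM in the depleted libraries, against 248 and 401 TPM in the controls, which is the order of the libraries seen in EEF1A1. Nearest to EEF2 were SEPTIN7, a septin of the cytoskeleton (0.0726), TPM2, a tropomyosin (0.214), and EIF3B, a subunit of initiation factor eIF3 (0.223). SEPTIN7 had 142 and 85.9 TPM in the depleted libraries, against 470.4 and 388 TPM in the controls. With 4 libraries many genes share a pattern, and the likeness is a description.

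Other genes of elongation, termination and ribosome rescue were lower rather than higher where they passed. Of 50 such genes, all tested, 7 fell, 0 rose and 43 did not pass, and 16 had an unadjusted p under 0.05, against 37.3% of all tested genes. Their median log2 fold change was -0.38, and 7 of 50 called lower is not above the background of 19.5%. Of the 12 genes of termination, recycling and rescue, 4 fell and 8 did not pass. NEMF, which marks stalled nascent chains on the large subunit, had 2.53 and 2.69 TPM in the depleted libraries, against 25.1 and 14.6 TPM in the controls (log2 fold change -2.48, limma adjusted p = 3.57e-06). ANKZF1, which cuts stalled chains from their tRNA, had 3.88 and 4.07 TPM in the depleted libraries, against 40.3 and 15.0 TPM in the controls (-2.37, limma adjusted p = 7.37e-06). In both genes the depleted libraries agree closely with each other.

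ZNF598, a ubiquitin ligase that senses collided ribosomes, had 21.5 and 19.9 TPM in the depleted libraries, against 73.4 and 67.1 TPM in the controls (-1.72, limma adjusted p = 0.000619). EIF2D, which removes tRNA from small subunits after termination, had 13.3 and 23.7 TPM in the depleted libraries, against 115 and 61.7 TPM in the controls (-2.18, limma adjusted p = 6.7e-06). Without control replicate 1 the calls of NEMF, ANKZF1, ZNF598 and EIF2D ended (limma adjusted p = 0.0506, 0.106, 0.104 and 0.108). LTN1, the ligase that acts with NEMF, had 2.38 and 1.07 TPM in the depleted libraries, against 4.00 and 3.50 TPM in the controls, and did not pass (limma adjusted p = 0.179). PELO and HBS1L, which open stalled ribosomes and resemble ETF1 and GSPT1, did not pass either (limma adjusted p = 0.151 and 0.133).

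Of 12 genes that modify the factors or the new chain, 1 fell. METAP2, an aminopeptidase that removes the first methionine, had 108 and 63.7 TPM in the depleted libraries, against 549 and 333 TPM in the controls (-2.35, limma adjusted p = 5.14e-08), and it passed in every setting run. Of 7 genes for diphthamide, the modified histidine of eEF2, 1 fell. DPH1, which acts in the first step, had 14.5 and 2.61 TPM in the depleted libraries, against 21.5 and 13.5 TPM in the controls. Those values overlap. The call (-1.28, limma adjusted p = 0.0277) ended without the filter on low values (0.245) and with the coding-length trend removed (0.152). It also ended with the replicate number as a block (limma adjusted p = 0.0613). Leaving out depleted replicate 2, control replicate 1 or control replicate 2 ended it too, at log2 fold changes of -0.22, -0.96 and -1.59.

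Mitochondria have their own elongation and release factors, and 1 of 9 such genes fell. TUFM, the mitochondrial counterpart of eEF1A, had 207 and 127 TPM in the depleted libraries, against 453 and 359 TPM in the controls (-1.31, limma adjusted p = 0.00441). Its call ended without the filter on low values (0.0545) and without depleted replicate 2 (0.159), control replicate 1 (0.224) or control replicate 2 (0.0543). The 6 other cytosolic elongation genes, the 2 selenocysteine genes and the 2 hypusine genes did not pass. Among them EIF5A, which helps the ribosome form difficult peptide bonds, was at -0.18 on the log2 scale (limma adjusted p = 0.744). Its value was 0.02 under median-ratio scaling. Once the trend on coding length was taken out it was -0.60, and it passed (limma adjusted p = 0.0467). Of the genes of this list, 3 were called higher under median-ratio scaling, and 1 rose with a minimum of 5 TPM, a pseudocount of 0.1 or the coding-length trend removed. The 3 were TRMT112 (log2 fold change 1.08, limma adjusted p = 0.0367), EEF1AKMT1 (1.19, 0.0303) and EEF1AKMT4 (1.08, 0.0458). All are among the genes that modify the factors or the new chain. In the main test they did not pass (limma adjusted p = 0.0505, 0.0912 and 0.13), though each depleted value lay above each control value.

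**Figure D5:**
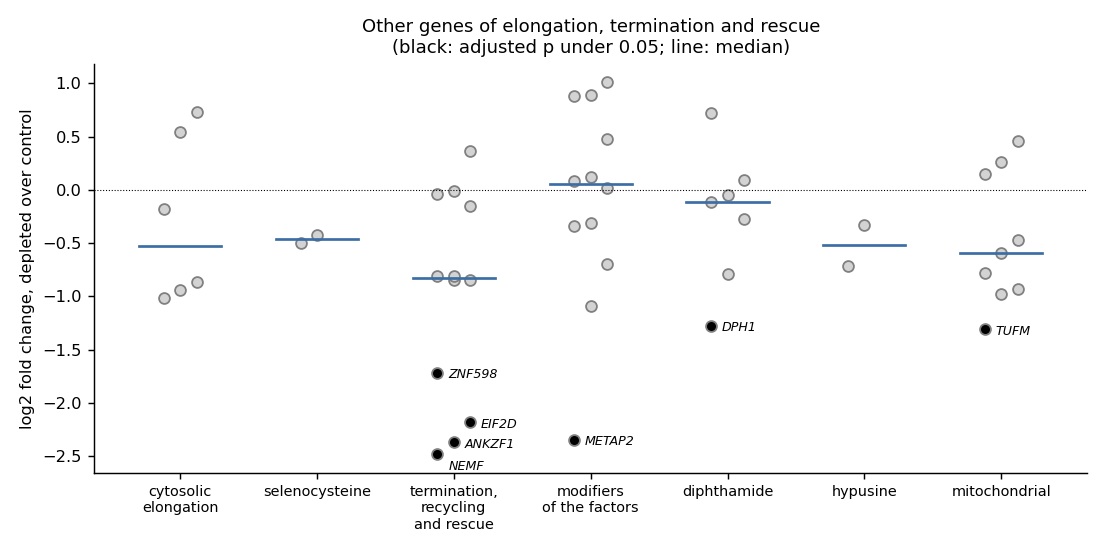
Log2 fold change, depleted over control, of the other elongation, termination and rescue genes by role, with genes past an adjusted p of 0.05 in black and named and a blue line at the median of each role. The 7 named genes all lie below 0, from -2.48 for NEMF to -1.28 for DPH1.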

How the data were processed

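Ribosome-protected fragments of 4 PANC-1 libraries were available, 2 per group. The deposited table gives TPM by the authors for each gene and library. Per the submitters' processing notes, fastp, Bowtie2 2.2.8, STAR, RSEM, DESeq2 and GRCh38 were used, with no role or order. Not given in the sources used here are the annotation release, the length definition, filters and the treatment of reads that fit several places. TPM is relative within a library, so a gene's value falls when others rise.

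Columns named KO were read as depleted, columns named NS as control and the number as the bioreplicate. Symbols came from a gene name table, and positions, coding lengths (the principal annotated transcript) and transcripts from GENCODE 29 on GRCh38. Of all genes, 5227 were listed at 0 in every library.

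The main test was limma 3.58.1 (R 4.3.3) on log2(TPM + 1), with a trended variance and robust moderation. It took the 11623 genes that reached 1 TPM in 2 or more libraries, over which the Benjamini-Hochberg adjustment ran. The fit has 2 residual degrees of freedom, and the median prior degrees of freedom were infinite, so most genes took their spread from the trend over all genes. Fold changes on this scale understate those of low genes. Ratios were compared by exact permutation of libraries. The fit was also run on simulated data drawn from its own model, which cannot show whether that model holds for these libraries.

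The members, lists and settings were chosen with earlier results of these data known. All 10 members are named, as are the genes of the list of 50 that passed, FBXO32 and the 3 genes nearest in pattern to EEF1A1 and to EEF2. LTN1, PELO, HBS1L, GSPT2, EIF5A, TRMT112, EEF1AKMT1, EEF1AKMT4, CHCHD3 and the overlapping gene AP002990.1 were named after their values were seen. The alternatives were other scaling, filters, pseudocount and moderation, the replicate block, removal of a coding-length trend (lowess, span 0.3) and leaving out each library.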

Additional observations from a re-analysis of the deposited data

How the results depend on the processing

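EEF2, EEF1A2, EEF1B2, EEF1D, EEF2K and GSPT1 kept their direction in every setting run. The call of EEF2 ended without control replicate 1 (limma adjusted p = 0.0646) and that of EEF1A2 in several settings. Leaving out single libraries gave from 347 to 2389 genes called lower and from 37 to 646 called higher over the whole table, from 0 to 6 members and from 1 to 14 other genes of these steps called lower. The same fits gave log2 fold changes from -1.12 to 0.46 for EEF1A1, -0.95 to 0.29 for EEF1G, -1.45 to 0.20 for ETF1 and -1.61 to 0.14 for ABCE1, positive without depleted replicate 2. They leave 1 library alone in its group, assumed to vary like the other group's, and a lost call does not show a lost effect. Without the filter on low values 1322 genes were lower and 207 higher. Median-ratio scaling gave 1251 higher. With the coding-length trend removed 1497 were lower, and 1494 with EEF1D at its shortest coding length, a setting chosen after seeing the data. Members called lower numbered 1 under median-ratio scaling, without the filter, without the variance trend, with the replicate block and with either removal of the coding-length trend, and 1 member, EEF1D, was higher in the first of those removals. Among the other genes of these steps, 3 were higher under median-ratio scaling and 1 with a minimum of 5 TPM, a pseudocount of 0.1 or either removal of the length trend.

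No pairing of the samples by replicate number was seen, though a weak correlation cannot show that libraries numbered alike were handled apart. Differences between replicates 1 and 2 in the 2 groups correlated at -0.0488 over 11623 genes, and with the replicate block 1930 genes were lower and 489 higher, while EEF1A2 (limma adjusted p = 0.0718) and DPH1 (limma adjusted p = 0.0613) were not called. Unknown depth limits what can be said of EEF2K, the lowest member. The cause of these dependences was not tested.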
